A study of Capra hircus with 9 samples.

Results

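The levels of 10 transcription factors of the salivary epithelium, BHLHA15, SPDEF, ELF5, EHF, ELF3, TFCP2L1, SOX9, SOX10, SOX2 and FOXC1, were followed in the submandibular gland of goats at 3 ages. The genes were chosen by name for their known roles in acini, ducts or progenitor cells, with earlier results of these data known. All 10 were found among the 22425 genes of the table, each as the sum of its transcripts. The samples were glands of healthy female Lubo goats kept alike, and all the animals were fasted and anaesthetised with xylazine before slaughter, with no treatment that set the groups apart besides age. There were 3 goats of 1 month (group A), 3 of 12 months (group B) and 3 of 24 months (group C), with 1 RNA-seq library each, and the study compared these ages to describe how gene expression in the gland changes with development. Levels are given as CPM, the usual scaling of a gene's expected counts to a common library size, which corrects for sequencing depth but not for transcript length, so a level can be compared between libraries but not between genes.

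The submandibular gland makes saliva in acini, and its ducts then modify that fluid and carry it to the mouth. Several of these factors are known for building the secretory acinar cell. BHLHA15, also called MIST1, is a basic helix-loop-helix factor that scales up the secretory apparatus of exocrine cells, and SPDEF is an ETS factor that drives mucous secretory differentiation. ELF5, EHF and ELF3 are ETS factors restricted largely to epithelia, and ELF5 is best known for alveolar differentiation in the mammary gland. TFCP2L1, a grainyhead-related factor, marks duct cells of the salivary gland and the kidney. SOX9, SOX10 and SOX2 are high-mobility-group factors known from salivary progenitors, and FOXC1 is a forkhead factor needed for lacrimal gland development.

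Library totals were from 11500000 to 24900000 expected counts. For CPM they were multiplied by TMM factors, which adjust for differences in composition between libraries. These factors were 1.34, 1.1 and 1.38 in group A and from 0.815 to 1.02 in the older libraries. On the library sizes so adjusted, 3 counts, taken as the limit of detection, corresponded to between 0.145 and 0.189 CPM. The library of 1-month replicate 2 stood apart from the other 8. Its 12 acinar marker genes summed to 66.9 CPM, against 16734 and 8015 CPM in the other 1-month libraries and from 46572 to 71788 CPM in the older ones. ZG16B made up most of the sum in each of the other 8 libraries, at 12974 and 6564 CPM in 1-month replicates 1 and 3. In 1-month replicate 2 ZG16B stood at 8.96 CPM, and SLC12A2, at 43.7 CPM, made up most of the sum. Each gene of the list was lowest in that library, where the water channel gene AQP5 stood at 0.486 CPM. The 9 thymocyte genes summed to 8812 CPM in it, against 2789 and 1323 CPM in 1-month replicates 1 and 3 and from 7.02 to 17.2 CPM in the older libraries, where the thymic epithelial regulator FOXN1 was listed at 0. The 13 pan-epithelial genes were less unequal, with 704 CPM in 1-month replicate 2 and 1139 and 817 CPM in the other 1-month libraries. The label of a submandibular gland is thus met by few salivary transcripts in this library, and the counts that rest on it are given with and without it.

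**Figure D1:**
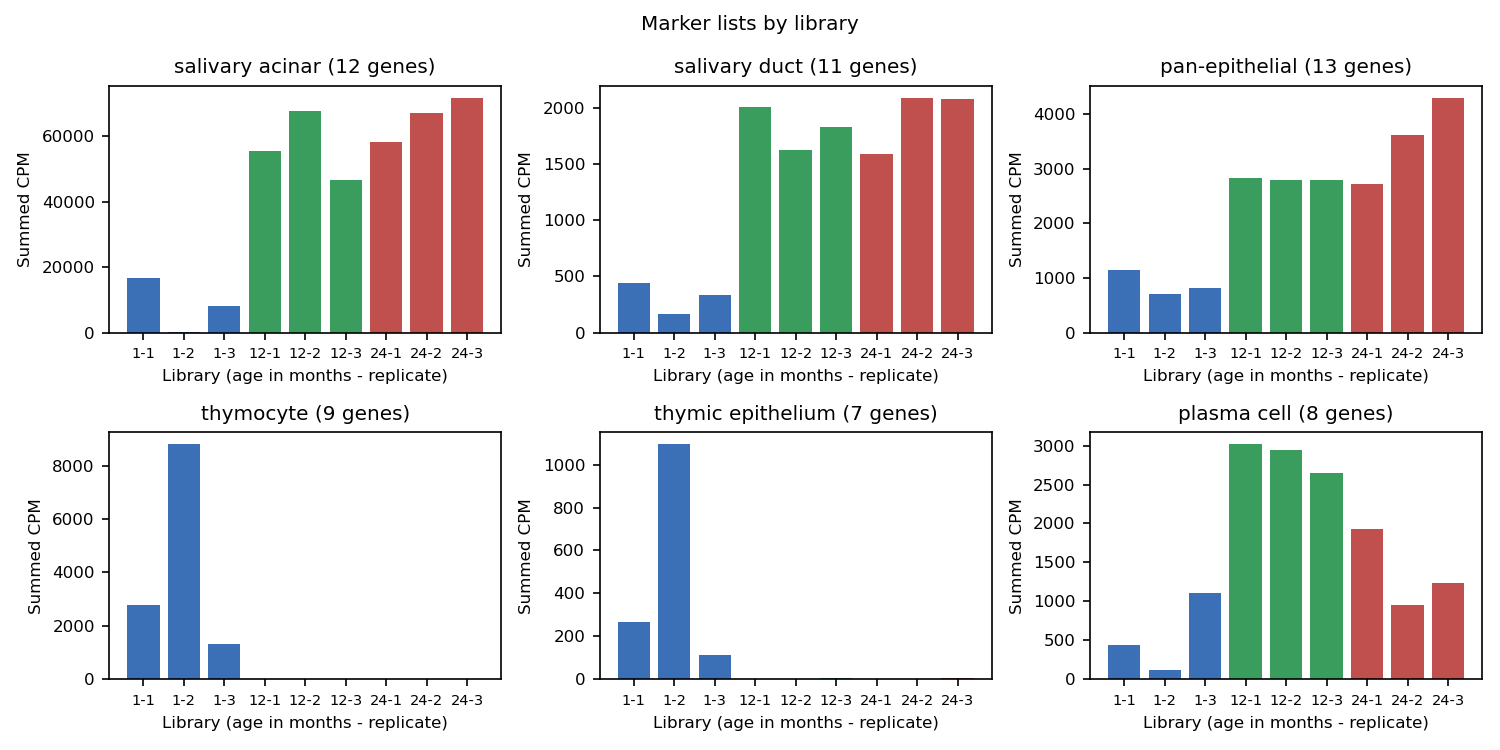
Summed CPM of 6 marker lists (y axis) in each of the 9 libraries (x axis, age in months and replicate number, 1 bar per library, coloured by age). The acinar sum is 66.9 CPM in 1-month replicate 2, the lowest of the 9 bars, while the thymocyte sum of 8812 CPM is the highest. In the other libraries most of the acinar sum is ZG16B.

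All 9 factors above the limit of detection were lowest in 1-month replicate 2, intermediate in 1-month replicates 1 and 3, and, apart from ELF5, higher in each of the 6 older libraries than in each 1-month library (replicates 1 and 3 were both below every older library for 23.0% of genes). The drop in 1-month replicate 2 was very unequal. The mean CPM of 1-month replicates 1 and 3 was 183-fold that of replicate 2 for EHF, 178-fold for BHLHA15, 169.9-fold for SPDEF, 136-fold for SOX10, 109-fold for TFCP2L1 and 97.6-fold for ELF5. It was only 22.0-fold higher for FOXC1, 14.9-fold for SOX9 and 6.08-fold for ELF3. SPDEF rested on 3.37 expected counts in that library, ELF5 on 5.39 and BHLHA15 on 10.1, so the largest of these ratios are imprecise. Among 15615 genes tested in either comparison with group A, 30.7% were also lowest in 1-month replicate 2.

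**Figure D2:**
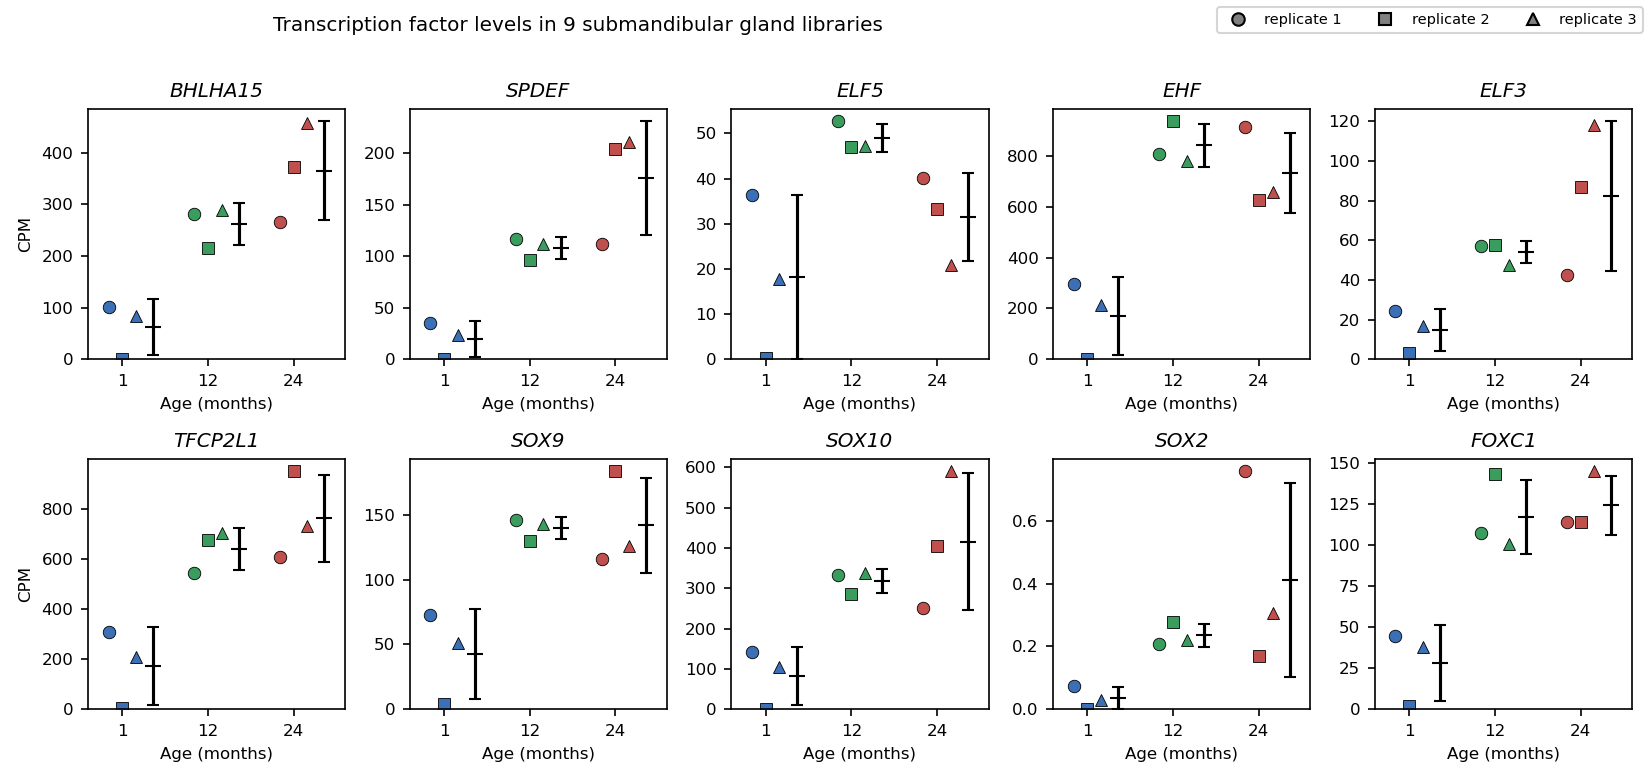
CPM (y axis, linear and different for each gene) of the 10 factors by age in months (x axis), 1 point per library with the shape giving the replicate number, and beside each age the mean ± SD of 3 libraries with the lower end cut at 0. The square of 1-month replicate 2 lies near 0 in each panel, the older libraries lie above the 1-month ones apart from ELF5, and SOX2 stays under 1 CPM.

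Of the acinar factors, BHLHA15 had 101, 0.521 and 84.8 CPM in the 3 libraries of group A, 281, 215 and 289 CPM in group B, and 265, 372 and 457 CPM in group C. SPDEF had 35.5, 0.174 and 23.5 CPM in group A, 117, 96.7 and 112 CPM in group B, and 112, 204 and 211 CPM in group C. Both genes were higher in every older library than in any 1-month library, and both were highest in 24-month replicates 2 and 3. SOX10, which marks acinar and intercalated duct progenitors, had 142, 0.903 and 104 CPM in group A, 334, 285 and 337 CPM in group B, and 251, 405 and 591 CPM in group C. It followed BHLHA15 closely: the ratio of SOX10 to BHLHA15 CPM stayed between 0.947 and 1.41 in the 8 libraries other than 1-month replicate 2, where it was 1.73 on 17.5 and 10.1 counts. In these whole-gland samples, fewer cells of a type and less RNA per cell cannot be told apart.

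Among the ETS factors, EHF had 297, 1.39 and 212 CPM in group A, 808, 937 and 779 CPM in group B, and 915, 629 and 658 CPM in group C. ELF3 had 24.4, 3.4 and 17.0 CPM in group A, 57.2, 57.6 and 47.8 CPM in group B, and 42.3, 87.1 and 118 CPM in group C. Within group C, EHF was thus highest and ELF3 lowest in 24-month replicate 1. ELF5 had 36.4, 0.278 and 17.7 CPM in group A, 52.7, 47.0 and 47.3 CPM in group B, and 40.2, 33.3 and 20.9 CPM in group C. It was the only factor above the limit of detection whose group A and group C values overlapped, and its 3 values in group C were all below the 3 in group B. EHF and ELF5 are neighbours in the RefSeq annotation of the goat assembly ARS1.2, with no annotated gene starting between them.

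TFCP2L1, the duct factor, had 308, 2.36 and 208 CPM in group A, 546, 675 and 703 CPM in group B, and 608, 952 and 732 CPM in group C. FOXC1 had 44.8, 1.87 and 37.6 CPM in group A, 107, 143 and 100.3 CPM in group B, and 114, 114 and 145 CPM in group C. SOX9, a factor of distal bud progenitors, had 72.5, 4.13 and 50.9 CPM in group A, 146, 129.8 and 143 CPM in group B, and 116, 184 and 126 CPM in group C. For these 3 genes each older library exceeded each 1-month library, and groups B and C overlapped. SOX2 was near the limit of detection everywhere. The 1-month libraries held 1.18, 0.0 and 0.44 expected counts of it, the 12-month ones 3.72, 5.02 and 4.09, and the 24-month ones 13.9, 3.51 and 6.0, and it did not pass the filter on low counts. No 1-month library reached 3 counts of SOX2, so its level at that age was not detectable at this depth, and no difference is drawn from it.

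Between 12 and 1 months, the 9 factors that passed the filter on low counts were 2.85-fold (ELF5) to 5.8-fold (SPDEF) higher in group B by the fitted value, but with all 6 libraries 0 of the 9 passed the test. The test was edgeR's quasi-likelihood test with Benjamini-Hochberg adjustment over all genes, at an adjusted p under 0.05, and 5.91% of the 15369 genes tested rose by it. The log2 fold changes were 2.54 ± 1.28 (SE, n = 3 against 3) for SPDEF, 2.38 ± 1.35 for EHF and 2.15 ± 1.31 for BHLHA15, and the adjusted p-values of the 9 in edgeR were from 0.0764 (ELF3) to 0.375 (ELF5). Each 12-month library exceeded each 1-month library for all 9, as for 26.7% of the genes tested. By edgeR's unadjusted p, 1 of the 9 (ELF3) was under 0.05, as were 37.1% of all genes. The exact test, DESeq2 and limma each passed 1 factor, again ELF3, where 11.2%, 12.5% and 9.39% of all genes rose.

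Without 1-month replicate 2, 8 of the 9 factors rose between 1 and 12 months, against 20.1% of 15772 genes. Their fold changes were smaller and much tighter, from 2.25-fold for SOX9 to 3.66-fold for SPDEF. On the log2 scale SPDEF rose by 1.87 ± 0.21 (SE, n = 2 against 3, edgeR adjusted p = 0.00238), EHF by 1.72 ± 0.2 (edgeR adjusted p = 0.0026) and BHLHA15 by 1.48 ± 0.19 (edgeR adjusted p = 0.00299). FOXC1 rose by 1.49 ± 0.2, ELF3 by 1.38 ± 0.2, SOX10 by 1.37 ± 0.19, TFCP2L1 by 1.3 ± 0.23 and SOX9 by 1.17 ± 0.18 on the same scale. ELF5, at 0.85 ± 0.3, had an edgeR adjusted p of 0.0677. Over all genes tested the median log2 fold change was -0.01, and over the 9 factors it was 1.38. The 9 thymocyte genes and the 6 thymic epithelial genes tested all fell also without this library. Their part in the values of 1-month replicates 1 and 3 was not tested. With 1-month replicate 1 or 3 left out in its place, 0 of the 9 factors passed at 12 months. In those fits 386 of 15716 and 194 of 15675 genes rose.

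Between 24 and 1 months, ELF3 alone passed with all 6 libraries, against 6.48% of 15442 genes that rose. Its log2 fold change was 2.6 ± 0.72 (SE, n = 3 against 3, edgeR adjusted p = 0.0435), or 6.08-fold higher in group C. That call held without 1-month replicate 2, but leaving out any other library of the pair gave an edgeR adjusted p from 0.0505 to 0.146. SPDEF had the largest fitted change, 3.3 ± 1.28 on the log2 scale with an edgeR adjusted p of 0.112, and ELF5 the smallest, 0.93 ± 1.12 with 0.602. Each 24-month library exceeded each 1-month library for 8 of the 9 factors, as for 20.1% of the genes tested, and ELF5 was the exception. By edgeR's unadjusted p, 3 of the 9 were under 0.05, as were 33.5% of all genes. The exact test passed 2 factors, DESeq2 4 and limma 2, where 10.8%, 11.1% and 9.21% of all genes rose.

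Without 1-month replicate 2, the same comparison gave 8 of 9 factors that rose, against 12.6% of 15907 genes. SPDEF rose 6.38-fold (log2 fold change 2.67 ± 0.43, SE, n = 2 against 3, edgeR adjusted p = 0.00528), ELF3 4.26-fold and BHLHA15 4.2-fold. SOX10 rose 3.62-fold, FOXC1 3.22-fold, TFCP2L1 3.18-fold, EHF 3.08-fold and SOX9 2.47-fold, with edgeR adjusted p-values from 0.00738 to 0.0341 over these and ELF3 and BHLHA15. ELF5 was again the exception, with a log2 fold change of 0.31 ± 0.43 and an edgeR adjusted p of 0.622. Thus the same 8 factors passed at both older ages once that library was left out. It was set apart after its low levels of these factors were seen. Each older age was then set against 1-month replicates 1 and 3 alone, so the results at the older ages are not separate. A single fit of the 8 remaining libraries reused these data and passed 8 factors at each age. In that fit 11.1% of genes rose at 12 months and 16.6% at 24 months. The passes without 1-month replicate 2 are therefore a description and not an independent test.

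**Figure D3:**
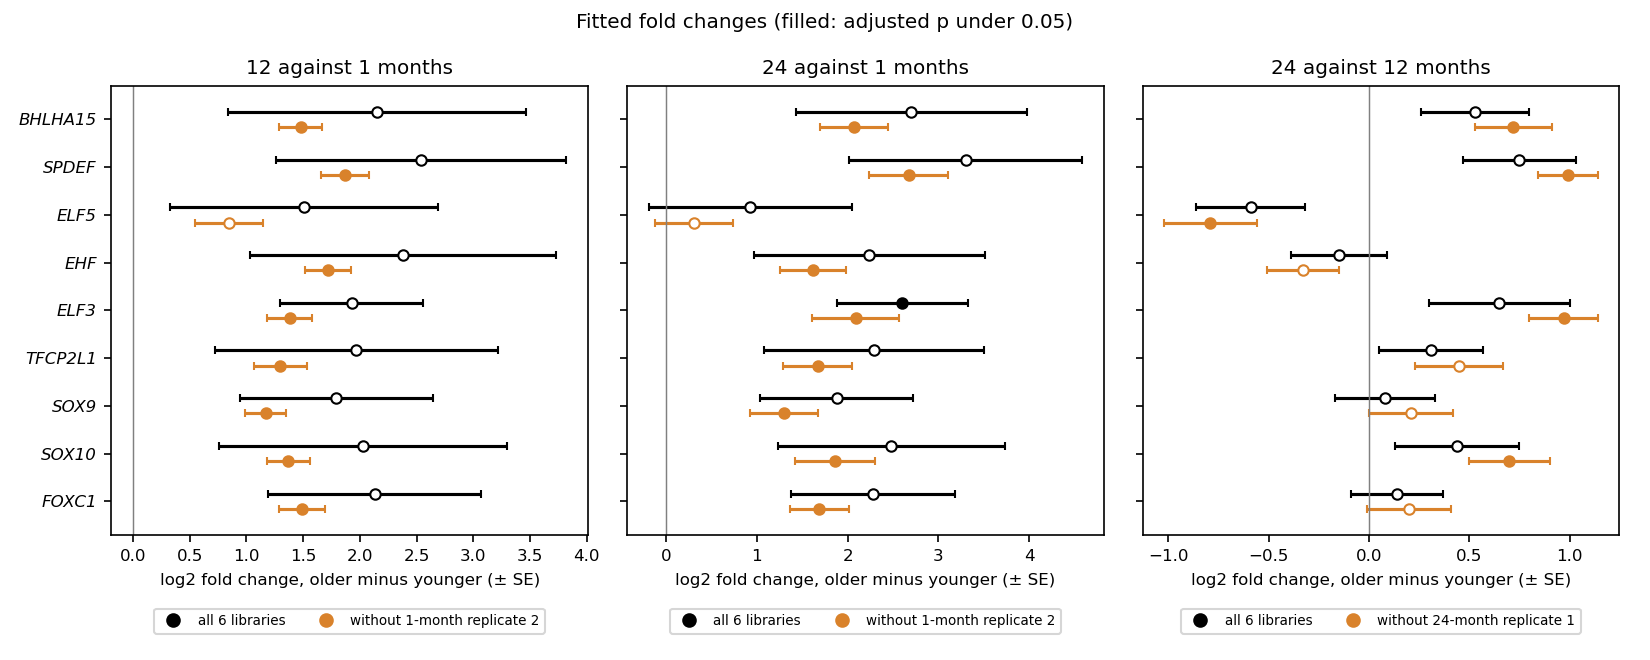
Fitted log2 fold change ± SE (x axis, older minus younger) of the 9 factors tested (y axis) in the 3 comparisons, with all 6 libraries in black and with the named library left out in orange, filled where the adjusted p is under 0.05. Leaving out 1-month replicate 2 fills 8 of the 9 points in both comparisons with group A, and leaving out 24-month replicate 1 fills 5 of 9 between the older groups.

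Between 24 and 12 months, 0 of the 9 factors passed edgeR's quasi-likelihood test, as did 0.0% of the 14742 genes tested. By edgeR's unadjusted p, 1 of the 9, SPDEF, was under 0.05 (log2 fold change 0.75 ± 0.28, p = 0.0266), as were 10.2% of all genes, and DESeq2, limma and the exact test also passed 0 of the 9. Of all genes, the exact test and DESeq2 each passed 0.19% and limma 0.0%. ELF5 alone was lower in each 24-month library than in each 12-month library, as were 7.73% of genes. Within group C the libraries were unlike each other. Against the mean of the 12-month libraries, SPDEF was 1.03-fold in 24-month replicate 1, 1.88-fold in replicate 2 and 1.94-fold in replicate 3. ELF3 was 0.78-fold, 1.61-fold and 2.17-fold in the same order, and BHLHA15 1.01-fold, 1.42-fold and 1.75-fold. ELF5 ran the other way, at 0.82-fold, 0.68-fold and 0.427-fold, and EHF at 1.09-fold, 0.748-fold and 0.781-fold.

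**Figure D4:**
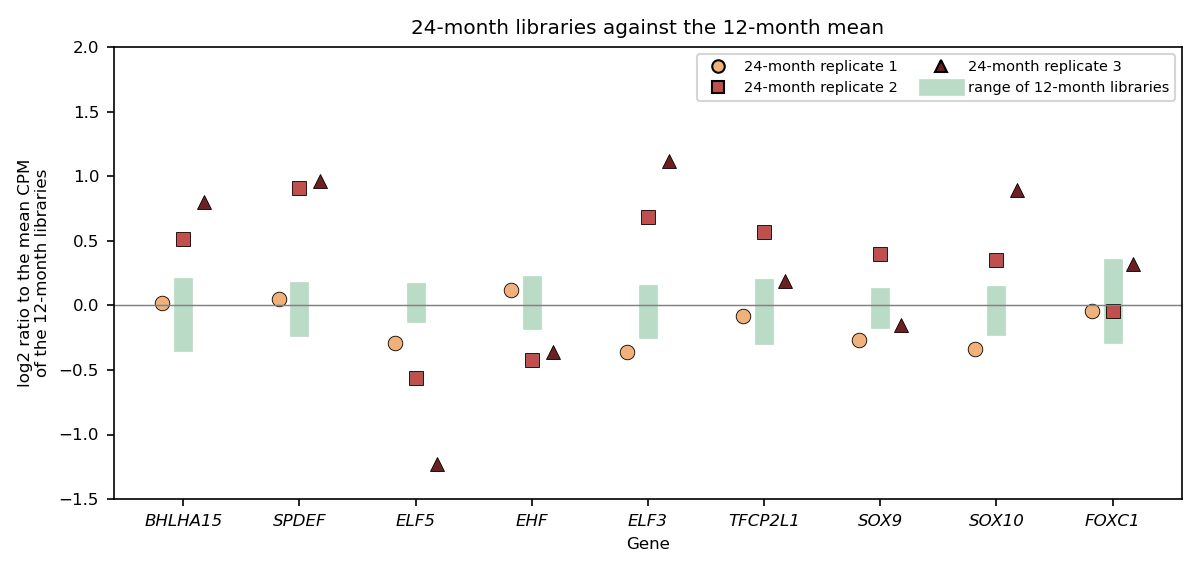
Log2 ratio (y axis) of each 24-month library to the mean CPM of the 3 libraries of 12 months, for 9 factors (x axis), with the range of the 12-month libraries as a green bar. Replicates 2 and 3 lie above the green bar for BHLHA15, SPDEF, ELF3, TFCP2L1 and SOX10 and below it for ELF5 and EHF, while replicate 1 lies inside it for BHLHA15, SPDEF, EHF, TFCP2L1 and FOXC1.

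Without 24-month replicate 1, 4 of the 9 factors rose between 12 and 24 months, against 15.9% of 15093 genes, and 1 fell, against 12.9%. Leaving out any other library of this pair passed 0 of the 9 factors and 0 of all genes. The library left out here was the one in group C with SPDEF and BHLHA15 nearest the 12-month mean (1.03-fold and 1.01-fold). The values below are therefore a description and not an independent test. SPDEF rose by 0.99 ± 0.15 on the log2 scale (SE, n = 3 against 2, edgeR adjusted p = 0.0131), ELF3 by 0.97 ± 0.17 (edgeR adjusted p = 0.0143), BHLHA15 by 0.72 ± 0.19 (edgeR adjusted p = 0.0327) and SOX10 by 0.7 ± 0.2 (edgeR adjusted p = 0.039). ELF5 changed by -0.79 ± 0.23 (edgeR adjusted p = 0.0425). In that fit TFCP2L1, EHF, SOX9 and FOXC1 did not pass, with edgeR adjusted p-values from 0.151 to 0.481. Both remaining 24-month libraries exceeded all 12-month ones for 5 factors (29.1% of genes) and lay below them for ELF5 and EHF (31.3% of genes). The pan-epithelial sum was also higher in these libraries, at 3614 and 4300 CPM against 2725 CPM in 24-month replicate 1, and its part in these differences was not tested. The ratio of SPDEF to ELF5 CPM shows the divergence within each library: it was 0.974 and 1.32 in 1-month replicates 1 and 3, between 2.06 and 2.36 in the 12-month libraries, and 2.79, 6.13 and 10.1 in the 24-month libraries. That pair was chosen after its values were seen and the ratio was not tested.

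Other salivary and epithelial genes were counted in the same comparisons. With all libraries 3 of 12 acinar, 1 of 9 duct and 8 of 13 pan-epithelial genes rose at 12 months, and 3, 1 and 7 rose at 24 months, against 5.91% and 6.48% of all genes. Without 1-month replicate 2 these counts were 9, 7 and 13 at 12 months and 7, 8 and 13 at 24 months, against 20.1% and 12.6% of all genes. Each factor was therefore also set against the pan-epithelial genes. The relative level is the log2 CPM of the factor, with 0.1 CPM added, minus the mean log2 CPM of the 13 pan-epithelial genes of the same library. In 1-month replicate 2 it was -4.54 for BHLHA15, -5.72 for SPDEF and -5.26 for ELF5, far under the 0.76, -0.74 and -0.71 of 1-month replicate 1, whereas ELF3 stood at -2.05 against -1.28. The 10 factors summed to 2.14% of the pan-epithelial CPM in this library, against 71.1% to 93.2% in the other 8 libraries. The epithelial keratin KRT8 stood at 303 CPM in it, above the other 1-month libraries, and the cadherin CDH1 at 214 CPM, between them, while EPCAM stood at 6.84 CPM against 130.0 and 94.0 CPM. The pan-epithelial genes were thus themselves unequally reduced in it. The part that thymic epithelium, whose 7 genes summed to 1095 CPM in it, had in these epithelial levels was not tested.

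Since the pan-epithelial genes rose, most genes were lower relative to them, and the groups did not overlap for 84.5% of genes at 12 months and 83.8% at 24 months. With all libraries, SPDEF and EHF were higher relative to the pan-epithelial genes in each 12-month library than in each 1-month library, as were 1.69% of the genes tested. At 24 months this held for SPDEF alone, against 1.13% of genes. Each such gene had p = 0.1 in a two-sided exact permutation test, the smallest p that 3 against 3 libraries allow. Without 1-month replicate 2, the older libraries were all higher for 2.19% and 1.7% of genes and did not overlap for 88.3% and 87.7%. SPDEF was then higher at both ages, by 0.34 at 12 months and 0.63 at 24 months, from -0.81 ± 0.1 (SD, n = 2) in group A to -0.48 ± 0.12 (SD, n = 3) and -0.19 ± 0.23. ELF5 was lower at both ages, with differences of -0.62 and -1.66, and so was SOX9, with -0.37 and -0.72. Each had every older library below both 1-month libraries, as did most of the genes tested. At 12 months EHF was also higher in every older library, by 0.18, and ELF3 and SOX10 were lower, with -0.16 and -0.18. At 24 months the groups overlapped for EHF, ELF3 and SOX10. BHLHA15 differed by -0.08 and 0.03 and FOXC1 by -0.08 and -0.33, with overlapping groups. With 2 against 3 libraries the smallest p of the exact permutation test is 0.2, so none of these relative differences can pass a threshold of 0.05.

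**Figure D5:**
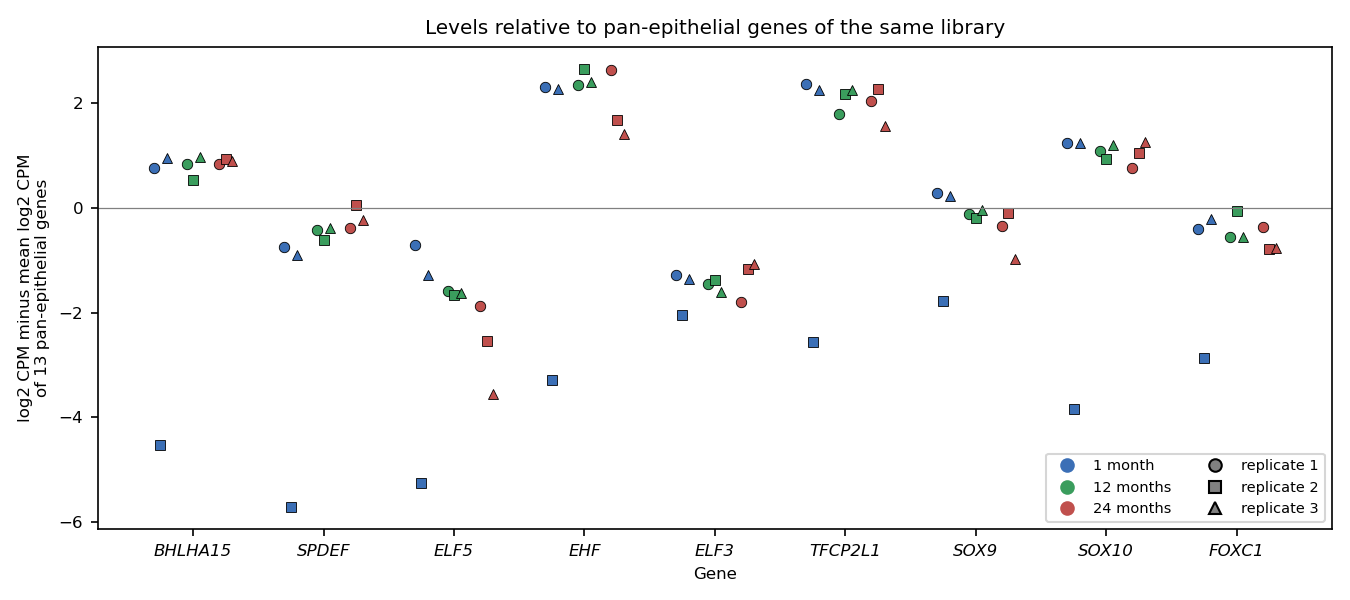
Log2 CPM of 9 factors (x axis) minus the mean log2 CPM of the 13 pan-epithelial genes of the same library (y axis), 1 point per library, colour giving the age and shape the replicate number. Apart from 1-month replicate 2, BHLHA15 keeps within 0.53 to 0.98, while ELF5 goes from -0.71 and -1.29 at 1 month down to -3.55 in 24-month replicate 3.

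The table lists 25 transcripts of the 10 factors, 19 of them known RefSeq models and 6 new ones that the authors assembled, and 4 were listed at 0 in every library. SPDEF, ELF3, SOX9, SOX10, SOX2 and FOXC1 were each represented by 1 transcript. BHLHA15 had 1 known and 1 new transcript, and the new one took 34.7% to 44.3% of the gene's counts in the 8 libraries other than 1-month replicate 2. For EHF, the model XM_005690086.3 held 83.3% to 87.1% in those libraries and the new transcript TCONS_00046017 held 12.9% to 16.7%. ELF5 came mainly from XM_005690080.3, with 90.5% to 100%. TFCP2L1 was split over 4 known models, none of them above 42.9% in the same libraries, and its 3 new transcripts held at most 0.187% each. In 1-month replicate 2 the 45.8 counts of TFCP2L1 were all given to XM_018061646.1.

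Tested as transcripts, 0 of 14 passed between 12 and 1 months with all libraries (edgeR adjusted p from 0.17 to 0.599, against 0.555% of 30272 transcripts that rose, and 1 of 14 at an unadjusted p under 0.05). Between 24 and 1 months 0 of 16 passed, against 0.242% of 30205 that rose, with 1 of 16 at an unadjusted p under 0.05. Without 1-month replicate 2, 11 of 17 rose at 12 months, against 5.08% of 32739 transcripts, among them both transcripts of BHLHA15 and the 2 main ones of EHF. Of the 4 known TFCP2L1 models, XM_018061645.1 and XM_018061646.1 rose, while XM_018061643.1 and XM_018061644.1 had edgeR adjusted p-values of 0.0657 and 0.136. At 24 months without that library 0 of 17 transcripts passed (edgeR adjusted p from 0.0609, 13 of 17 at an unadjusted p under 0.05), where the test of summed genes passed 8 of 9. Only 0.143% of 32926 transcripts rose in that fit.

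Known targets of the acinar factors were examined from short lists. Of 7 targets of BHLHA15, 2 rose at 12 months and 4 at 24 months with all libraries, against 5.91% and 6.48% of all genes, and none fell. The counts were 4 and 5 without 1-month replicate 2, against 20.1% and 12.6% of all genes. Leaving out 1 library at a time gave from 0 to 4 at 12 months and from 1 to 5 at 24 months. The calcium pump gene ATP2C2 rose by 3.17 ± 0.48 and 4.04 ± 0.59 on the log2 scale (edgeR adjusted p = 0.012 and 0.00771). It had 19.2, 5.1 and 12.3 CPM in group A, 117, 104 and 94.9 CPM in group B, and 137, 155 and 261 CPM in group C. CREB3L1, a membrane-bound regulator of secretory capacity, rose by 2.26 ± 0.58 and 2.9 ± 0.7 (edgeR adjusted p = 0.041 and 0.0285), and RAB3D, a secretory granule GTPase, rose at 24 months by 2.59 ± 0.65 (edgeR adjusted p = 0.0329). The median over the list was 2.24 at 12 months and 2.59 at 24 months, against -0.02 and -0.01 over all genes tested. Plasma cells also express BHLHA15, and their 8 marker genes summed to between 117 and 1105 CPM in group A, 2646 and 3018 CPM in group B and 955 and 1928 CPM in group C. JCHAIN, the immunoglobulin joining chain, stood between 2436 and 2801 CPM in group B and at 1805, 747 and 969 CPM in group C. It made up most of the sum in each older library. Another gene of the list, MZB1, had 23.8, 18.3 and 25.2 CPM in group B and 9.64, 29.2 and 38.6 CPM in group C. The genes of the list thus did not share 1 order between these groups, and the part of plasma cells in BHLHA15 was not tested.

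Of 6 targets of SPDEF, 1 rose at each older age with all libraries, against 5.91% and 6.48% of all genes. It was the mucin gene MUC5B, with 0.667, 0.209 and 0.414 CPM in group A, 20.6, 27.5 and 0.967 CPM in group B and 0.526, 17.1 and 136 CPM in group C. MUC5B overlapped between groups A and C. Without 1-month replicate 2, 5 of the 6 rose at 12 months and 4 at 24 months, against 20.1% and 12.6% of all genes. FOXA3, a forkhead factor of mucous cells, rose in these fits by 2.13 ± 0.42 and 3.0 ± 0.62 (edgeR adjusted p = 0.0117 and 0.0122). ERN2, an unfolded-protein sensor of mucous cells, rose by 1.99 ± 0.26 and 2.44 ± 0.34 in the same fits. AGR2, a disulfide isomerase needed for mucin folding, did not follow SPDEF within group C: it had 488, 287 and 102 CPM in 24-month replicates 1, 2 and 3.

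Other transcription factors of gland epithelia were described with a list of 40 genes, 35 of which were tested in each comparison with group A. With all libraries, 5 rose at 12 months and 3 at 24 months, against 5.91% and 6.48% of all genes. Of the list, 2 fell at 12 months and 3 at 24 months, where 1750 of 15369 and 1543 of 15442 genes fell. The listed factors that rose included the epithelial regulator OVOL1, by 2.35 ± 0.43 and 3.02 ± 0.55 on the log2 scale. They also included the tooth and palate factor PAX9, by 1.5 ± 0.39 at 12 months. Those that fell were SOX4, by 1.91 ± 0.41 and 2.13 ± 0.46, and ELF1, by 1.71 ± 0.41 and 1.78 ± 0.45, at both ages, and RUNX1, by 1.77 ± 0.46, at 24 months. SOX4, ELF1 and RUNX1 are also expressed in thymocytes, and all 3 were highest in 1-month replicate 2, at 297, 322 and 231 CPM. Without that library 24 of 36 rose at 12 months and 18 of 37 at 24 months, against 20.1% and 12.6% of all genes. The same 3 fell at both ages, where 3341 of 15772 and 2076 of 15907 genes fell. XBP1, which drives the secretory unfolded protein response, rose by 1.92 ± 0.18 and 1.97 ± 0.34 in those fits, and FOXA1 by 1.71 ± 0.18 and 1.8 ± 0.34. The median over the list was 1.21 and 1.22 without that library, and that of the 9 factors was 1.38 and 1.69.

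Signals that act on salivary buds were also listed. Of 13 FGF, retinoid, Wnt and ectodysplasin genes, 1 rose at each older age with all libraries, near the 5.91% and 6.48% of all genes, and none fell. Leaving out 1-month replicate 2, 4 rose at 12 months and 1 at 24 months, against 20.1% and 12.6% of all genes. The gene that rose with all libraries was the receptor gene FGFR2, by 1.59 ± 0.29 and 1.64 ± 0.37 on the log2 scale (edgeR adjusted p = 0.0174 and 0.024). Its ligand FGF10 had 8.67, 0.417 and 7.11 CPM in group A, 15.8, 12.7 and 20.8 CPM in group B and 9.41, 10.1 and 9.02 CPM in group C, and rose without 1-month replicate 2 at 12 months (1.05 ± 0.27, edgeR adjusted p = 0.0252). Over the list the median log2 fold change was 0.7 at 12 months and 0.46 at 24 months, against -0.02 and -0.01 over all genes.

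Some of the factors are also expressed outside the salivary epithelium, and markers of those cells were examined. SOX10 is known in Schwann cells and melanocytes. Of the Schwann cell list, 0 of 11 tested genes passed edgeR's test with all libraries at either older age (0 and 1 of them at an unadjusted p under 0.05). Of all genes, 2659 of 15369 and 2544 of 15442 passed, and 37.1% and 33.5% had such an unadjusted p. With 1-month replicate 2 left out, 1 gene of the list rose at each older age, against 20.1% and 12.6% of all genes. In those fits 2 of the list fell at 12 months and 1 at 24 months, where 3341 of 15772 and 2076 of 15907 genes fell. The summed CPM of the list was 250.0, 75.8 and 213 in group A and from 348 to 451 in the older libraries, and most of it in the older libraries came from the receptor gene ERBB3, which stood at 119.7, 5.94 and 84.3 CPM in group A and from 219 to 358 CPM later. The list sum was thus lowest in 1-month replicate 2 and higher in the older libraries, as SOX10 was. Of the 5 melanocyte genes, TYR and MLANA were listed at 0 in each of the 9 libraries, while the regulator MITF was present in all of them, with 26.9, 5.69 and 38.5 CPM in group A and from 20.9 to 41.4 CPM in the older libraries. SOX9 is known in cartilage, whose gene ACAN was at most 4.51 CPM. The cartilage collagen gene COL2A1 had 1.63, 2.4 and 2.87 CPM in group A and at most 0.461 CPM in the older libraries. A further cartilage collagen gene, COL9A1, had 3.56, 1.32 and 2.92 CPM in group A and from 4.65 to 17.6 CPM in the older libraries, and it rose at 24 months (2.14 ± 0.61 on the log2 scale, edgeR adjusted p = 0.0474, and 0.0485 without 1-month replicate 2). The part of these cells in SOX10 and SOX9 was not tested. FOXC1 is known in mesenchyme and endothelium. The 10 mesenchymal genes summed to 4428, 1028 and 5037 CPM in group A and from 519 to 1229 CPM in the older libraries, with most of the group A sums from COL1A1 and COL3A1. The median log2 fold change of the list without 1-month replicate 2 was -0.57 at 12 months and -1.02 at 24 months, and the 6 endothelial genes summed to between 301 and 649.8 CPM over all 9 libraries.

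The genes whose pattern over the 9 libraries was most like each factor were sought among 14606 genes by Pearson's r on log2(CPM + 1), as a description. For BHLHA15 they were AQP5 and SOX10 (r = 0.998 each), and for SOX10 they were AQP5 (r = 0.999) and BHLHA15. For SPDEF they were VMO1 and NDRG2 (r = 0.998 each), for ELF3 CREB3L1 (r = 0.995) and NQO2 (r = 0.994), and for ELF5 MBOAT2 and MUC7 (r = 0.992 each). EHF was most like RBFOX2 and TBX3, TFCP2L1 like NR3C2 and SHANK2, SOX9 like MOCOS and FOXA1, and FOXC1 like GRHL1 and ERN2, with r from 0.997 to 0.998. All these values share the low point of 1-month replicate 2. For the pairs named, r over the other 8 libraries was lower, from 0.924 (ELF5 and MUC7) to 0.995 (SPDEF and VMO1).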

How the data were processed

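RNA-seq of 9 submandibular gland libraries was analysed, 3 goats at each of 3 ages. Per the labels, ribosomal RNA was removed and libraries marked the strand with dUTP. The authors filtered the reads, removed ribosomal reads with Bowtie2 (2.2.8), aligned with TopHat2 (2.1.1), used Cufflinks for assembly and estimated abundance with RSEM. What they deposited is an expected count for each transcript and library, not normalised for depth or length (3.49% of values above 0 are whole). Whether counting used the strand, and the genome build, are not given in the sources used here, so no coordinates are printed.

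Expected counts of 52739 transcripts were summed by symbol to 22425 genes and rounded. For names, 42652 of 42686 RefSeq rows (99.9%) matched the annotation of assembly ARS1.2. CPM used TMM library sizes over all 9 libraries (edgeR 4.0.16, R 4.3.3). Each pair of ages was tested on its 6 libraries by edgeR (filterByExpr, TMM, glmQLFit, glmQLFTest) with Benjamini-Hochberg adjustment over all genes, at an adjusted p under 0.05, and the SE is the absolute log2 fold change over the square root of F. Permutation tests used scipy. The scripts were tested on simulated data.

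Text names the 10 factors, for each list up to 4 genes per direction that passed with groups that do not overlap plus defining genes, and for each factor the 2 most alike genes. Other genes are named where the text turns on them, after their values were seen. The factors and lists were chosen with earlier results of these data known. Alternatives were other scalings, DESeq2 1.42.0, limma 3.58.1, edgeR's exact test, no filter, all 9 libraries in one fit, the study's added threshold of an absolute log2 fold change over 2, a replicate block and each library left out. A fit of 8 libraries without 1-month replicate 2 was added after seeing the data. A few genes of the lists are not reported here by name.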

Additional observations from a re-analysis of the deposited data

How the results depend on the processing

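Calls among the 9 factors depended on the libraries more than on the tool. Leaving out 1 library at a time gave from 0 to 8 factors passing at 12 against 1 months, from 0 to 8 at 24 against 1 months and from 0 to 5 at 24 against 12 months. This was not particular to the factors. Leaving out any 12-month library passed 0 of all genes at 12 against 1 months. Between the older groups 0 of all genes passed unless 24-month replicate 1 was left out. At 24 against 1 months, 250 of 15852 genes passed without 24-month replicate 3. For factor transcripts the range was 0 to 11 at 12 months, and for factors not overlapping relative to pan-epithelial genes, of 10 with SOX2, it was 3 to 7 at 12 months and 1 to 3 at 24 months. SOX2 is among those counted at 12 months, although it was not detectable at 1 month and its value follows the added constant. One fit of 8 libraries without 1-month replicate 2 passed 8 factors against group A at both ages and 0 between the older groups. At 12 against 1 months the exact test, DESeq2 and limma passed 1 factor each, where edgeR's quasi-likelihood test passed 0. At 24 against 1 months, where it passed 1, the exact test passed 2, DESeq2 4 and limma 2. Upper-quartile scaling and library totals passed 0 factors, where 771 and 249 of 15442 genes rose. With 1 CPM added in place of 0.1, 2 did not overlap at 24 months, SPDEF and again SOX2. With the study's added threshold, 0 of the 9 factors passed at 12 against 1 months, with or without 1-month replicate 2. At 24 against 1 months 1 passed with all libraries and 3 without that library. Of all genes, 1727 of 15369 and 1920 of 15772 met it in either direction at 12 months, and 1964 of 15442 and 2143 of 15907 at 24 months.

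Each library came from a different goat, and replicate numbers were not taken as a pairing. Deviations of same-numbered libraries from their group means correlated by -0.16 to 0.3, which cannot show whether they share a batch. With the replicate block, 0 factors passed at 24 against 1 months and 0 in the other comparisons. Of all genes, 1805 of 15442 passed in that fit at 24 against 1 months. At 12 against 1 months 776 of 15369 passed, and at 24 against 12 months 5 of 14742.

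Library totals alone moved the median log2 fold change of all genes to -0.51 and -0.71 against group A, and that of the 9 factors to 1.42 and 1.46, all still higher with age. Between 24 and 12 months SOX9 reversed to -0.13 with library totals and to -0.18 without 24-month replicate 2, and FOXC1 to -0.04 with library totals and to -0.03 without 24-month replicate 3. Leaving out single libraries gave from -0.18 to 0.21 for SOX9 and from -0.03 to 0.31 for FOXC1. The cause was not tested.

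With 2 or 3 libraries a group, differences within the spread of 1-month libraries were not detectable, and SOX2 rested on at most 13.9 counts.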
